A study of Mus musculus with 6 samples.

Results

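A set of 10 genes of Wnt signal transduction was examined in mouse chronic lymphocytic leukaemia (CLL) cells: the co-receptor Lrp6, the Dishevelled genes Dvl1, Dvl2 and Dvl3, the scaffolds Axin1 and Apc, the kinases Gsk3a and Gsk3b, Ctnnb1, which encodes beta-catenin, and Tcf7, which encodes the transcription factor TCF1. They were chosen by symbol as Wnt transducers that are casein kinase 1 (CK1) substrates or partners, with TCF1, and are 10 of the 54232 genes in the count table. Each symbol matched 1 row, and all 10 were among the 10067 genes with enough counts to test. The cells came from Eµ-TCL1 mice, in which the Eµ enhancer drives the TCL1 oncogene in B cells and a CD5-positive leukaemia follows. Mononuclear spleen cells of donors at terminal disease, about 99% CLL cells, were injected into the peritoneum of wild-type C57BL/6J mice, which keep their own immune cells. From day 5 recipients received the CK1 delta and epsilon inhibitor PF-670462 orally, at a dose of 50 mg/kg dissolved in PBS with 10% kolliphor (CK1i, 3 libraries), or the same vehicle alone (CTRL, 3 libraries). Each 5 days of dosing were followed by 2 days of rest, over 8 weeks, and ended when the CTRL mice reached terminal disease. The labels do not give age or sex, the number of donors, or whether each library is 1 mouse. The p-values therefore measure the spread between these libraries, which may be technical.

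In canonical Wnt signalling, Wnt ligands join a Frizzled receptor to LRP5 or LRP6, and Dishevelled proteins gather at the receptor. In cells without a Wnt signal, Axin and APC hold beta-catenin for CK1 and GSK3, whose phosphorylation marks it for degradation. Receptor activation blocks this destruction complex, and beta-catenin then enters the nucleus and works with TCF/LEF factors such as TCF1. CK1 delta and epsilon also phosphorylate Dishevelled. The libraries measured RNA, so phosphorylation and protein levels of these factors were not observed.

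No member of the set differed between CK1i and CTRL past an adjusted p of 0.05 in edgeR's quasi-likelihood test, and the call over all 10067 tested genes was also 0%. DESeq2 called 5 genes over the whole table and no member. Members with lower values in CK1i were Dvl1, Dvl2, Gsk3a, Gsk3b and Ctnnb1, and those with higher values were Dvl3, Axin1, Apc, Lrp6 and Tcf7. The median log2 fold change was 0.023 over the 10 genes and -0.0055 over all tested genes. At an unadjusted edgeR p under 0.05, 2 members were lower (Dvl1 and Dvl2), where 2% of tested genes were, and 1 was higher (Tcf7), where 2.7% were. For Dvl1 and Dvl2 every CK1i library was lower than every CTRL library, an order found in 4.48% of tested genes. The opposite order, with CK1i libraries on top, was found for no member and 5.22% of tested genes, and 8 members overlapped between the groups. The unadjusted count of 3 was also 3 without CTRL replicate 1, was 1 (Dvl2) without CTRL replicate 3, and was 0 without CK1i replicate 1.

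**Figure D1:**
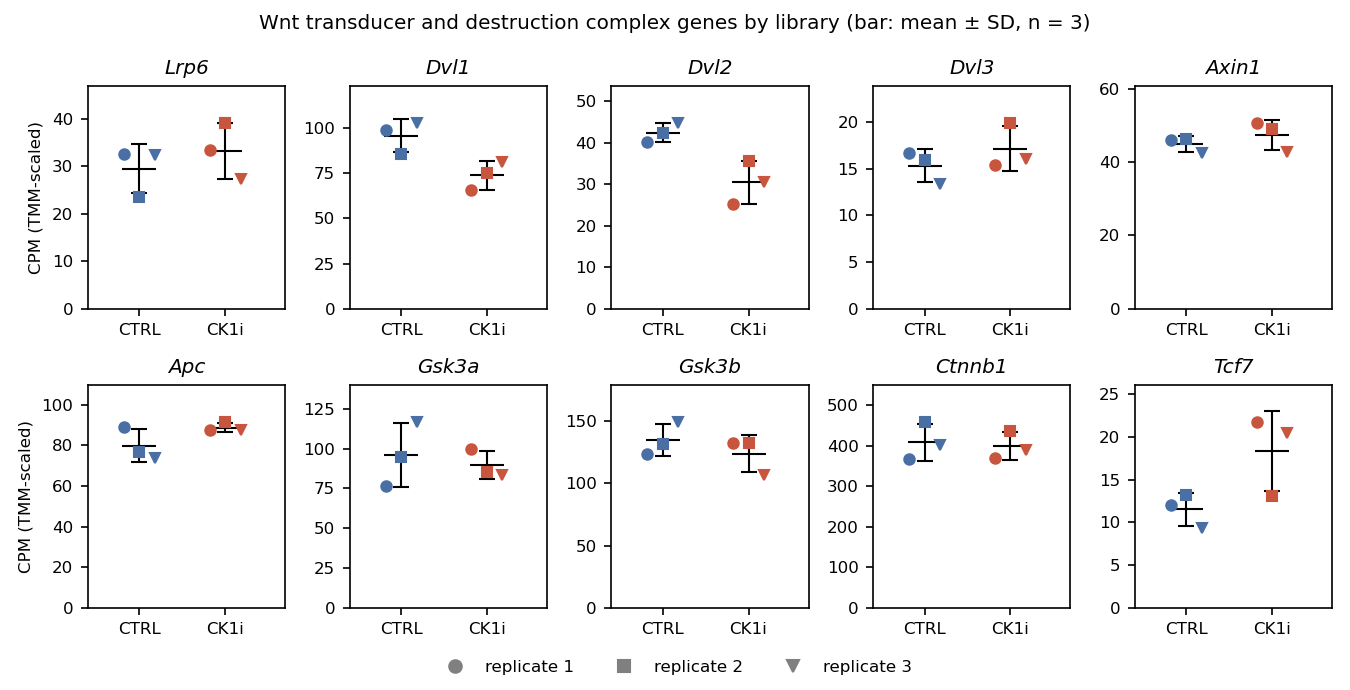
Level of each of the 10 genes in each library, in CPM (counts scaled to a common library size, vertical axis from 0), for CTRL (blue) and CK1i (red). Bars give the mean ± SD of 3 libraries. The groups are apart for Dvl1 and Dvl2, and for Tcf7 the second CK1i library, at 13.1 CPM, lies among the CTRL libraries.

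Libraries held 2472064 to 3105137 counts, and members had 252 (Tcf7) to 6811 (Ctnnb1) counts over the 6 libraries. One library, CTRL replicate 1, stood apart on the first principal component at -31.4, with the other 5 between -4.68 and 12.4. Cd79b, a chain of the B-cell receptor, had 12230 counts in all, and the CLL marker Cd5 had 499. Of other cell types, NK and cytotoxic markers summed to 0.802 to 1.96 CPM in CK1i and 0.334 to 0.798 CPM in CTRL, with Ncr1 and Gzmb at 0 counts and Gzma the most counted at 7. Neutrophil markers were counted in CK1i replicate 1 alone (S100a8 with 6 counts and S100a9 with 4, 3.29 CPM together), while Ly6g, Elane, Mpo and Camp had 0. Platelet markers summed to 0.658 to 1.604 CPM in CK1i and 1.002 to 1.996 CPM in CTRL, with 18 counts of Itga2b, 2 of Ppbp and 0 of Pf4 and Gp1bb. Dendritic markers reached at most 3.34 CPM in a library and erythroid markers 8.01 CPM. Plasma cell markers summed to 578 to 1500 CPM in CK1i and 1050 to 1740 CPM in CTRL. Among them Jchain had 13754 counts, from 282 CPM in CK1i replicate 2 to 1348 CPM in CTRL replicate 2. The others on that list were Irf4 with 3390 counts, Xbp1 with 2619, Prdm1 with 1606 and Sdc1 with 112. Stroma and endothelium markers summed to 162 to 176 CPM in CK1i and 174 to 189 CPM in CTRL, nearly all of it Pecam1 (2895 counts). Of the rest, Col1a1 had 61 counts, Vwf 10, Col1a2 and Madcam1 1 each, and Col3a1, Ccl19 and Ccl21a 0. Monocyte and macrophage markers summed to 44.7 to 59.9 CPM in CK1i and 36.7 to 50.4 CPM in CTRL, most of it Cd68 (475 counts) and Mrc1 (265), while C1qa, C1qb and C1qc had 2, 1 and 4 counts in all. Cd68 did not overlap between groups, at 32.8 ± 1.96 CPM under CK1i against 23.3 ± 2.14 CPM under CTRL (SD, n = 3). CK1i libraries lay above CTRL libraries in this way for 5.22% of tested genes. Summed levels of the 23 tested proliferation genes and Kif11, which was counted but not tested, did not overlap between groups, at 3145, 4165 and 3051 CPM in CK1i replicates 1 to 3 and 1535, 2799 and 2599 CPM in CTRL replicates 1 to 3. The lowest was CTRL replicate 1, and the other 2 CTRL libraries were nearer to the CK1i libraries. Their part in the differences below was not tested. In bulk RNA, fewer cells that express a gene and less RNA per cell cannot be told apart.

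The promoters of the 3 Dishevelled genes are shown first. Dvl1 and Dvl2 had lower values in CK1i and Dvl3 did not, a contrast between the genes that was not tested. Each line gives the 130 bases before the RefSeq transcription start, 5′ to 3′ on the plus strand of GRCm38.p6, with any canonical E-box, CACGTG, in capitals. This palindromic motif reads the same on both strands and is known to be bound by the clock factors CLOCK and BMAL1, by MYC and by USF factors. The windows lie at chr4:155847272-155847401 for Dvl1, chr11:70000462-70000591 for Dvl2 and chr16:20516856-20516985 for Dvl3.
Dvl1: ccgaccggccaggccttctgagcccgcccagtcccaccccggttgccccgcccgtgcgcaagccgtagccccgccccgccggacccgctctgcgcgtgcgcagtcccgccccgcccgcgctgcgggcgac
Dvl2: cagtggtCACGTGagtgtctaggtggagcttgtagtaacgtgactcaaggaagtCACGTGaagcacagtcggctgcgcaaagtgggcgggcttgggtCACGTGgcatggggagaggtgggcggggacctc
Dvl3: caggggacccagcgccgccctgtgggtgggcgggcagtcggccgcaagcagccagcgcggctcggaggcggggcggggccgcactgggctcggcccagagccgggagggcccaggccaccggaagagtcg
The Dvl2 window held 3 E-boxes, which start at positions -123, -76 and -33, where -1 is the base before the start. The Dvl1 and Dvl3 windows held 0. Their GC content was 81.5% and 80.0%, against 60.8% for Dvl2. In the 250 bases before the start, 6.02% of the 32851 RefSeq promoters in the table held at least 1 E-box. At least 3 were found in 20 promoters of 18 genes, 0.0609% of all. Promoters were matched for 7 of the 10 genes, 9 promoters in all. Of these, Dvl2 alone held an E-box in its 250 bases, and none held the TCF/LEF core CTTTGAT or its reverse complement ATCAAAG, which 3.21% of all promoters held. The genes without a match were Axin1, Apc and Lrp6. A match is a description of the letters and not of binding, and its part in the RNA levels was not tested.

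Lrp6 is the co-receptor that takes up the Wnt signal at the membrane, where CK1 and GSK3 phosphorylate its tail. It lies on chromosome 6, 134446476 to 134566965. Its level was 33.6, 39.1 and 27.3 CPM in CK1i replicates 1 to 3 and 32.7, 23.6 and 32.4 CPM in CTRL replicates 1 to 3. The lowest library was CTRL replicate 2 and the groups overlapped. CK1i and CTRL differed by 0.17 ± 0.20 on the log2 scale (SE), with an edgeR adjusted p of 0.9995, and by 0.032 without CTRL replicate 2. Lrp5, its close relative, was at 0 counts throughout. For counting error alone this allows up to 0.176 CPM (3 counts over the 6 libraries), and it sets no limit if its reads were lost in counting.

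Dvl1 encodes a Dishevelled adaptor that carries the signal from receptor to destruction complex. It lies on chromosome 4, 155847402 to 155859303. Its level was 65.5, 75.03 and 81.4 CPM in CK1i replicates 1 to 3 and 99.0, 85.8 and 102.8 CPM in CTRL replicates 1 to 3. Every CK1i library was below every CTRL library, with 4.41 CPM between the nearest of them. The group levels were 74.0 ± 8.02 CPM under CK1i against 95.9 ± 8.93 CPM under CTRL (SD, n = 3). On the log2 scale CK1i minus CTRL was -0.38 ± 0.15 (SE), a fold of 0.770 with a 95% interval of 0.620 to 0.957, at an unadjusted edgeR p of 0.0218 and an adjusted p of 0.987. The 3′ end of Dvl1 lies inside Tas1r3, a taste receptor gene on the other strand, with 36 shared exon bases and 24 counts. The Dvl1 difference kept its sign with each library left out, from -0.46 without CK1i replicate 3 to -0.30 without CK1i replicate 1.

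Dvl2, on chromosome 11, 70000595 to 70012301, encodes another Dishevelled adaptor. Its level was 25.3, 35.6 and 30.5 CPM in CK1i replicates 1 to 3 and 40.1, 42.3 and 44.7 CPM in CTRL replicates 1 to 3. The groups did not overlap. The CTRL libraries lay close together, with an SD of 2.31 CPM around 42.4, while the CK1i libraries spread more widely, with an SD of 5.11 CPM around 30.5 (n = 3). The log2 fold change was -0.48 ± 0.18 (SE), a fold of 0.719 with a 95% interval of 0.553 to 0.934, at an unadjusted edgeR p of 0.0172 and an adjusted p of 0.943. Without CK1i replicate 2 it was -0.61, and without CK1i replicate 1 -0.36. The 3′ end of Dvl2 lies inside Acadvl, a mitochondrial fatty acid oxidation gene on the other strand, with 1151 shared exon bases, the part of a transcript that 3′ end libraries read. Acadvl had 482 counts over the 6 libraries, with 27.5 ± 3.64 CPM under CK1i against 29.8 ± 0.563 CPM under CTRL (SD, n = 3) and a log2 fold change of -0.12 ± 0.18 (SE). The strand setting of the counting is not stated in the labels, so Dvl2 counts are uncertain.

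Dvl3, on chromosome 16, 20516982 to 20534010, encodes the remaining Dishevelled adaptor and had the highest values in CK1i replicate 2. Its level was 15.5, 19.9 and 16.0 CPM in CK1i replicates 1 to 3 and 16.7, 16.0 and 13.4 CPM in CTRL replicates 1 to 3. The groups overlapped. Its log2 fold change was 0.16 ± 0.22 (SE), a fold of 1.12 with a 95% interval of 0.807 to 1.56. Without CK1i replicate 2 it was 0.037. Whether Dvl3 differs from Dvl1 and Dvl2 in its change was not tested.

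Axin1 encodes the scaffold on which the destruction complex assembles, and lies on chromosome 17, 26138688 to 26195811. Its level was 50.7, 48.9 and 42.9 CPM in CK1i replicates 1 to 3 and 46.2, 46.3 and 42.4 CPM in CTRL replicates 1 to 3. These values overlapped and varied little, with a pooled SD of log2 CPM of 0.10, where the median over all tested genes was 0.23. Axin1 had a log2 fold change of 0.082 ± 0.15 (SE), a fold of 1.06 with a 95% interval of 0.841 to 1.33. Apc, the tumour suppressor that holds beta-catenin in the complex, had 87.5, 91.3 and 87.4 CPM in CK1i replicates 1 to 3 and 89.1, 76.6 and 73.8 CPM in CTRL replicates 1 to 3. CTRL replicate 1 lay among the CK1i libraries and the other 2 CTRL libraries lay below them. The log2 fold change of Apc was 0.15 ± 0.14 (SE), a fold of 1.11 with a 95% interval of 0.904 to 1.37, and it was 0.24 without CTRL replicate 1.

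The 2 GSK3 genes, Gsk3a and Gsk3b, had slightly lower means in CK1i and overlapped between groups. Gsk3a, on chromosome 7, 25228258 to 25237851, encodes GSK3 alpha. Its level was 99.7, 85.5 and 83.4 CPM in CK1i replicates 1 to 3 and 76.7, 94.6 and 116.5 CPM in CTRL replicates 1 to 3. CTRL held both the lowest and the highest library. Gsk3a had a log2 fold change of -0.10 ± 0.17 (SE), a fold of 0.933 with a 95% interval of 0.730 to 1.19, and it turned to 0.067 without CTRL replicate 3. An annotated antisense gene, 9130221H12Rik, shares 820 exon bases with Gsk3a and had 217 counts, so Gsk3a counts are uncertain without the strand setting. Unlike Acadvl over Dvl2, it does not cover the 3′ end of the gene. Gsk3b, on chromosome 16, 38089001 to 38246084, encodes GSK3 beta. Its level was 132.6, 132.4 and 106.7 CPM in CK1i replicates 1 to 3 and 123.5, 131.3 and 148.9 CPM in CTRL replicates 1 to 3. Gsk3b had a log2 fold change of -0.12 ± 0.14 (SE), a fold of 0.921 with a 95% interval of 0.743 to 1.14.

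Ctnnb1, the gene of beta-catenin, lies on chromosome 9, 120929216 to 120960507. Its level was 369, 436 and 389 CPM in CK1i replicates 1 to 3 and 367, 457 and 401 CPM in CTRL replicates 1 to 3. The CK1i range lay inside the CTRL range. The log2 fold change was -0.036 ± 0.14 (SE), a fold of 0.975 with a 95% interval of 0.789 to 1.21. The sign turned without CK1i replicate 1 (0.014) and without CTRL replicate 2 (0.045). Ctnnb1 had 6811 counts in all. Its 3′ end also lies inside an opposite-strand gene, Ulk4, which had 5 counts.

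**Figure D2:**
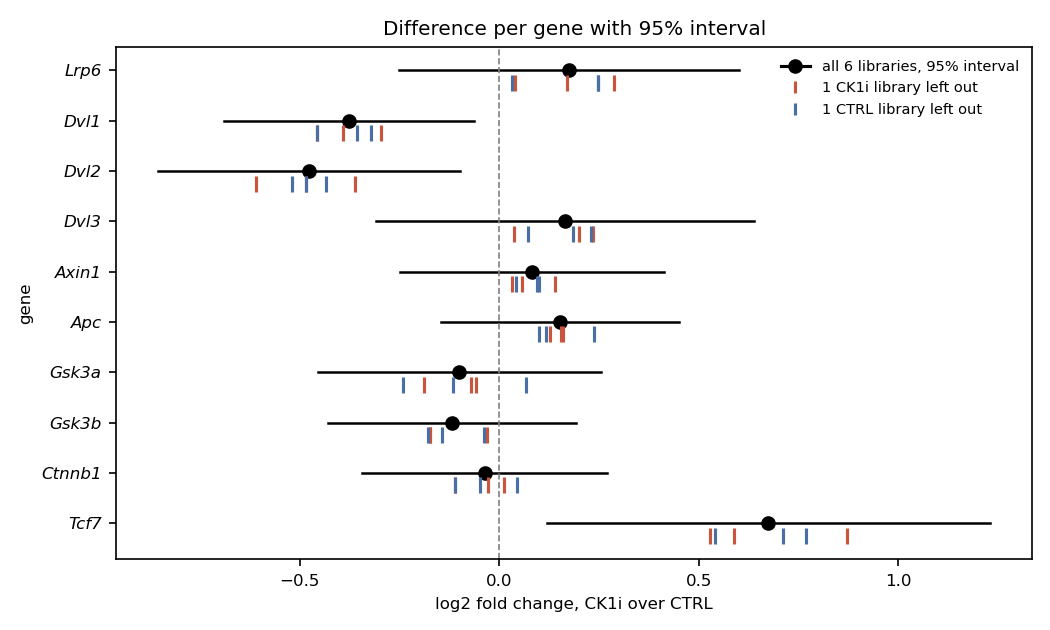
Log2 fold change of each of the 10 genes, CK1i over CTRL, with its 95% interval (black, all 6 libraries) and the value with 1 library left out (red or blue ticks). The intervals of Dvl1, Dvl2 and Tcf7 exclude 0 before adjustment over all genes, and ticks of Gsk3a and Ctnnb1 lie on both sides of 0.

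Tcf7 encodes TCF1, a partner of beta-catenin on DNA that is best known from T-cell development and T-cell memory. It lies on chromosome 11, 52252371 to 52283014. Its level was 21.7, 13.1 and 20.5 CPM in CK1i replicates 1 to 3 and 12.1, 13.2 and 9.35 CPM in CTRL replicates 1 to 3. CK1i replicates 1 and 3 lay above all CTRL libraries, while CK1i replicate 2 lay just under CTRL replicate 2. The group levels were 18.4 ± 4.68 CPM under CK1i against 11.5 ± 1.97 CPM under CTRL (SD, n = 3). The log2 fold change was 0.67 ± 0.26 (SE), a fold of 1.596 with a 95% interval of 1.09 to 2.35, at an unadjusted edgeR p of 0.0208 and an adjusted p of 0.977. In DESeq2 the unadjusted p was 0.0522. The 3′ end of Tcf7 lies within Gm26551, a long noncoding RNA gene on the same strand that shares no exon bases with it and had 14 counts. The Tcf7 fold change on the log2 scale ran from 0.53 without CK1i replicate 1 to 0.87 without CK1i replicate 2.

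T cells express Tcf7 strongly, so their markers were read in the same libraries. Per the labels the RNA came from leukaemic B cells sorted out of the splenocytes, a step meant to remove T cells. All 18 genes of the T-cell list had at least 1 count over the 6 libraries, 3 of them could be tested, and their summed level was 291 to 373 CPM in CK1i and 294 to 407 CPM in CTRL. Most of that sum was Cd2, with 3589 counts, and Lck, with 2005. The 4 genes of the CD3 chains (Cd3d, Cd3e, Cd3g and Cd247) had 6, 0 and 12 counts in the CK1i libraries and 2, 2 and 5 in the CTRL libraries, in the order of replicates 1 to 3. CK1i replicate 2 thus had 40 counts of Tcf7 with 0 counts of the CD3 chains. The list without Cd2 and Lck, a choice made after their counts were seen, had 47, 12 and 75 counts in the CK1i libraries and 22, 14 and 40 in the CTRL libraries, in the same order. Trac alone gave 22, 6 and 21 of these counts in the CK1i libraries and 13, 9 and 28 in the CTRL libraries. The 2 CK1i libraries with the most Tcf7 had the most T-cell marker counts, and CTRL replicate 3, with the fewest Tcf7 counts (28), had the third most. The part of T cells in the Tcf7 difference was not tested.

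**Figure D3:**
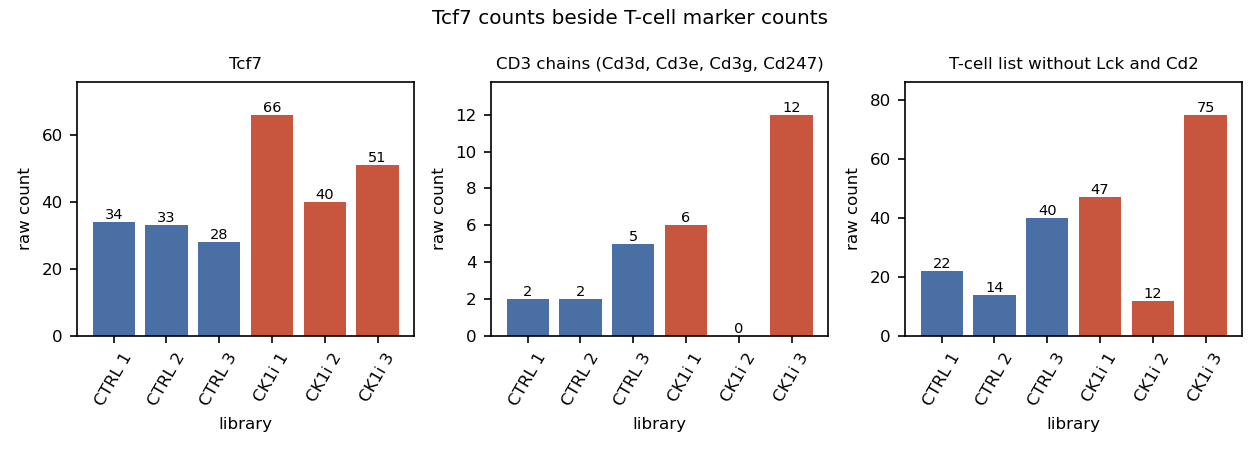
Raw counts (vertical axes from 0) of Tcf7, of the 4 CD3 chain genes together and of the T-cell list without Lck and Cd2, in each CTRL (blue) and CK1i (red) library. Counts are not scaled to library size, and in CPM Tcf7 in CK1i replicate 2 (13.1) lies just under CTRL replicate 2 (13.2). CK1i replicate 2 holds 40 Tcf7 counts beside 0 CD3 counts. CTRL replicate 3 holds the fewest Tcf7 counts, 28, beside 40 T-cell marker counts, of which 28 are Trac.

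The other TCF/LEF factors were scarce. Lef1 had 15 counts over the 6 libraries, Tcf7l2 had 4 and Tcf7l1 had 0, so Tcf7 was the one factor of this family that could be tested. Of the 16 tested nuclear factors and cofactors on the list, 7 were higher and 9 lower, and the median on the log2 scale was -0.038. The DNA helicase gene Ruvbl2 led them at 2.999 ± 1.22 CPM under CK1i against 5.47 ± 1.34 CPM under CTRL (SD, n = 3). Its difference on the log2 scale was -0.90 ± 0.41 (SE), with an edgeR adjusted p of 0.9995. The groups did not overlap, with CK1i lower, as in 4.48% of tested genes. Ruvbl2 shares 310 exon bases with the opposite-strand gene Gys1, which had 158 counts against its own 71.

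Among the other genes of the destruction complex and its kinases, 12 of the 25 tested were higher and 13 lower (median log2 fold change -0.00037). The drug targets Csnk1d and Csnk1e had -0.17 ± 0.14 and -0.30 ± 0.19 (SE), and Csnk1a1, the CK1 that primes beta-catenin for GSK3, had 0.010 ± 0.14. Ppp2r5d, a regulatory subunit of the phosphatase PP2A, had the smallest unadjusted p of the list, with 29, 16 and 34 counts in the CK1i libraries and 10 in each CTRL library. The groups did not overlap, with CK1i higher, as in 5.22% of tested genes. The log2 fold change of Ppp2r5d was 1.36 ± 0.39 (SE), with an edgeR adjusted p of 0.794. Its 3′ end lies inside Mea1 on the other strand, which had 331 counts against 109 for Ppp2r5d, so its counts are uncertain. Axin2, the inducible Axin and a direct beta-catenin target, had 1, 0 and 14 counts in the CK1i libraries and 1, 0 and 0 in the CTRL libraries, in that order of replicates. It was too low to test, and nearly all of its counts came from CK1i replicate 3. Dishevelled partners and planar polarity genes had 5 of 12 tested members higher and 7 lower, with a median of -0.056. Arrb2, a beta-arrestin, had 38.9 ± 5.66 CPM under CK1i against 49.3 ± 4.39 CPM under CTRL (SD, n = 3). Arrb2 did not overlap between groups, with CK1i lower, as in 4.48% of tested genes. Its log2 fold change was -0.34 ± 0.17 (SE), and that of Invs, the inversin gene, was 0.30 ± 0.19, both with an edgeR adjusted p of 0.9995.

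Upstream, few ligands and receptors were detected. Of 21 genes for Wnt ligands and their secretion, 17 had 0 counts and 2 could be tested, both lower in CK1i. Wnt10a had 19.7 ± 1.99 CPM under CK1i against 48.2 ± 14.8 CPM under CTRL, and Wnt10b 24.1 ± 6.83 and 34.6 ± 14.2 CPM (SD, n = 3). On the log2 scale Wnt10a was at -1.29 ± 0.23 (SE), at an edgeR adjusted p of 0.224, and Wnt10b at -0.53 ± 0.32. Without CTRL replicate 3, Wnt10a was at -1.51 with an edgeR adjusted p of 0.0251, and with all libraries DESeq2 gave it an adjusted p of 0.0173. Of 34 receptors and extracellular regulators, 20 had 0 counts and 3 were tested. These 3 were Ryk, a Wnt receptor related to tyrosine kinases, at a log2 fold change of -0.026 ± 0.16 (SE), Lgr5, an R-spondin receptor, at 0.54 ± 0.45, and Rnf43, a ligase that removes Frizzled, at 0.035 ± 0.25. Fzd5 was the Frizzled gene with the most counts, 54 over the 6 libraries, and was too low to test. A count of 0 can also arise in counting: Ctbp2 and Porcn, which many cell types use, were at 0.

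Downstream, 6 of 21 canonical Wnt targets were tested, 5 higher and 1 lower (median log2 fold change 0.28). Id2, an inhibitor of helix-loop-helix factors, had 73.2 ± 9.78 CPM under CK1i against 60.6 ± 6.35 CPM under CTRL (SD, n = 3), and a log2 fold change of 0.27 ± 0.16 (SE). Myc, the growth regulator, had 0.28 ± 0.19 and Cd44, an adhesion receptor, -0.085 ± 0.14. Jun had the largest value of the 6, 0.57 ± 0.47. Its level was 2019, 894 and 694 CPM in CK1i replicates 1 to 3 and 1032, 542 and 852 CPM in CTRL replicates 1 to 3. Of the 6, 0 had an unadjusted edgeR p under 0.05 and 0 had groups without overlap. Among the 21 targets 11 had 0 counts, Ccnd1, Sp5, Notum and Nkd1 among them. Of the 10 cadherins and catenins, Ctnnal1 alone was tested, at 0.031 ± 0.35 (SE), and Cdh1, the gene of E-cadherin, had 0 counts. Over the 63 distinct tested genes of these lists, leaving out the members and the proliferation genes, 30 were higher and 33 lower (median log2 fold change -0.016). edgeR called 0 of them after adjustment. With an unadjusted p under 0.05 it had 1 higher (Ppp2r5d) and 2 lower (Wnt10a and Ruvbl2), against the 2.7% and 2% of all tested genes given above. For 2 of the 63 (Ppp2r5d and Gskip) every CK1i library was above every CTRL library, where 5.22% of tested genes were. For 4 (Wnt10a, Ruvbl2, Arrb2 and Csnk1d) every CK1i library was below every CTRL library, where 4.48% were. All 23 tested proliferation genes were higher. By unadjusted p the first 4 were Kif20a, Ube2c, Nusap1 and Ccnb2. Kif20a, a kinesin of cytokinesis, was at 0.87 ± 0.18, and Ube2c, an enzyme that works with the anaphase-promoting complex, at 1.44 ± 0.29. Nusap1, a spindle protein, was at 1.101 ± 0.23, and the mitotic cyclin Ccnb2 at 0.97 ± 0.22 (log2 fold change ± SE). None of the 23 passed the adjusted threshold in edgeR, and their median was 0.73. At an unadjusted p under 0.05, 17 of the 23 were higher, where 2.7% of tested genes were. For 15 every CK1i library was above every CTRL library, where 5.22% were. The list was chosen with earlier results of these data known, so these counts describe it and are no test of the set.

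**Figure D4:**
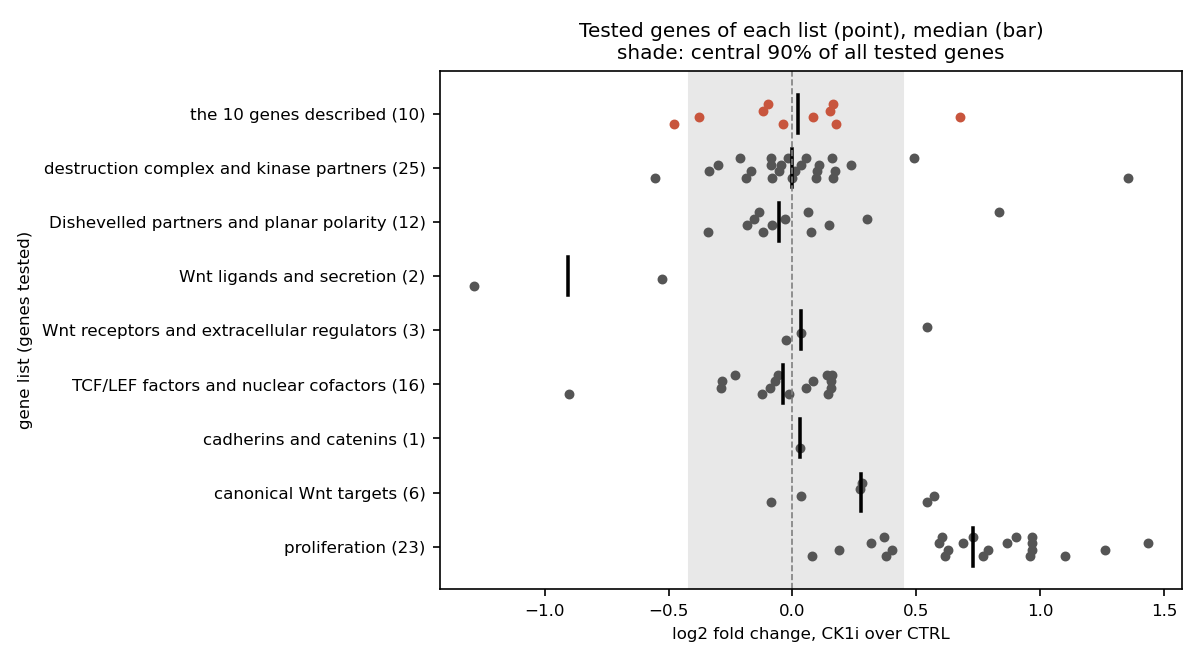
Log2 fold change, CK1i over CTRL, of each tested gene in the 10 genes described (red) and in 8 related lists (grey), with the median of each as a bar; the shaded band from -0.42 to 0.44 holds the central 90% of all tested genes. Dvl2 and Tcf7 lie outside the band and the other 8 members inside it, Dvl1 near its lower edge.

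The genes whose pattern over the 6 libraries was most like that of Dvl2, by Pearson's r of log2 CPM among 8802 other genes, were Usp10, a deubiquitinase (0.994), Trim44 (0.994), Prep, a prolyl endopeptidase (0.982), Dus3l (0.976) and Trp53rka (0.971). For Tcf7 they were Uxt (0.983), Abhd12 (0.983), Lemd3, an inner nuclear membrane protein (0.978), Gdi2, a regulator of RAB proteins (0.976), and the coactivator Ncoa1 (0.967). An r above 0.9 was found for 52 of the 8802 genes with Dvl2 and for 65 with Tcf7. The libraries share depth and group differences, so these values describe likeness only.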

How the data were processed

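The authors deposited whole-number counts per gene for the 6 libraries. Per the labels' protocols, RNA of sorted splenic leukaemia cells was made into 3′ end libraries with a QuantSeq forward kit and unique molecular identifiers (UMIs), read for 75 bases. The submitters' processing notes list UMI-tools 1.1.1, STAR 2.7.3a, featureCounts 1.6.3 and build GRCm38.p6 among others, with no role or order. UMI collapsing and strand use are not given in the sources used here, so limits for a count of 0 cover counting error only, while fold change intervals also hold the spread between libraries. A 3′ end count is not divided by length. Where counts or CPM of different genes are set side by side, they describe what was counted and do not rank expression. All libraries carry 1 batch label, so no batch could be tested.

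Groups follow the treatment label, and replicates are numbered in accession order. The analysis used edgeR 4.0.16 under R 4.3.3: filterByExpr (minimum count 10, minimum total 15), TMM, the robust quasi-likelihood test, and Benjamini-Hochberg adjustment over all 10067 genes, with a threshold of 0.05. The procedure was tested on simulated data. CPM is TMM-scaled, log2 CPM has a prior count of 2, and SE is the log2 fold change divided by the root of F. Coordinates are those of GENCODE M21 (GRCm38), where 54165 of the identifiers matched, and promoters those of RefSeq (GRCm38.p6). Alternatives were other scalings, filters and dispersion settings, DESeq2 1.42.0, limma-voom 3.58.1 and each library left out. The members and lists were chosen with earlier results of these data known. Beyond the members, the text names list genes with an unadjusted p under 0.05 (up to 4 a list, or the 2 smallest p), set CK1, TCF/LEF and Wnt genes, and the 5 genes most like Dvl2 and Tcf7 of at least 5 CPM; other genes were named after their values were seen.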

Additional observations from a re-analysis of the deposited data

How the results depend on the processing

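No member passed an adjusted p of 0.05 under any of the 14 alternatives to the test, and all members but Gsk3a (0.067 without CTRL replicate 3) and Ctnnb1 (0.014 without CK1i replicate 1 and 0.045 without CTRL replicate 2) kept the sign of their log2 fold change in all of them. The 3 members with an unadjusted p under 0.05 became 2 in DESeq2, and between 0 (without CK1i replicate 1) and 3 with 1 library left out, 1 of these without CTRL replicate 3. Over all genes, the count past the threshold was 0 in edgeR, 3 in edgeR with no low-count filter, 5 in DESeq2 and 0 to 1 with 1 library left out. Among genes of the pathway and proliferation lists it was 0, then 1 with no filter (Wnt10a, adjusted p = 0.0020), 3 in DESeq2 (Wnt10a, Ube2c and Cenpf, each adjusted p = 0.0173; Cenpf was named after its values were seen) and 0 to 1 with 1 library left out, the 1 being Wnt10a without CTRL replicate 3 (-1.51, adjusted p = 0.0251). The cause of these changes was not tested. Scaling moved the median of all genes by less than 0.1 (log2). A prior count of 0.5 moved no member's log2 CPM in a library by more than 0.078. No paired analysis was possible because the labels give the 2 groups no shared replicate numbers.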

Other observations

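CK1i replicate 3 held most counts of 3 Wnt-related genes that were too low to test, all named after their values were seen. Axin2 had 14 of its 16 counts there. Wls, which carries Wnt ligands to the cell surface, had 28 counts in that library, 6 in each of the other CK1i libraries and 1 in each CTRL library. Vangl2, a core gene of planar cell polarity, had 18, then 5 and 5, and 1, 2 and 1 in CTRL replicates 1 to 3. The T-cell list without Cd2 and Lck was also highest in that library, at 75 counts, and its part in these counts was not tested.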
